A study of Drosophila sechellia x Drosophila simulans with 8 samples.

Results

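Total RNA levels were compared between female and male oenocytes, the abdominal cells that make the hydrocarbons of the fly cuticle. The flies were F1 hybrids of Drosophila sechellia and Drosophila simulans aged 10 days, and the labels give no further allele or treatment for either sex. Females carry an X of each species and males a single X of the mother's species, so on the X the sexes differ in species origin as well as in dose. The comparison rested on 2 female and 2 male oenocyte libraries, which are 4 of the 8 libraries in the series; the other 4 came from the fat body of the same kinds of flies (2 female, 2 male) and are given here as side values. Oenocytes and fat body were dissected from the dorsal abdomen at intervals around the day, so each library mixes circadian times. The labels name neither the mother's species nor the number of flies behind a library, and they do not say whether the replicates came from separate flies, so p-values measure the spread between these libraries, which may be technical.

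Oenocytes build very long hydrocarbons from fatty acids by elongation, desaturation and a final loss of the carboxyl carbon. Several of these hydrocarbons act as contact pheromones in Drosophila, and the enzymes that place their double bonds, the desaturases, set which compound is made. In D. melanogaster the sexual identity of these cells is set by the cascade that begins with Sxl and runs through tra to dsx. Male flies have a single X, whose transcription is raised by the male-specific lethal complex, so X-linked and autosomal genes are described apart.

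Estimated counts summed to 25588172 and 34474092 in the female and 13739826 and 27527455 in the male oenocyte libraries. The 2 male libraries differed by a chi-square of 1.08 per degree of freedom over genes with 1 transcript and 50 to 1000 counts, where sampling noise gives 1, against 2.94 to 5.56 in the other 3 groups. They were therefore summed and counted as 1 sample, although their counts over all transcripts and their aligned reads differed by more (7.53 and 7.70). This left male oenocytes without a spread of their own, and the fit took the spread of the other 3 groups for them. A single X-linked transcript (FBtr0224549, gene GD24639), which the files do not pair with a name, held 34.3% and 35.7% of all counts in females and 41.7% in both male libraries. Its level was 387496 and 412904 CPM (counts relative to library size, with TMM normalization) in females and 468891 and 468943 CPM in males, and the log2 difference of -0.23 ± 0.17 (SE) did not pass the test (edgeR quasi-likelihood, Benjamini-Hochberg adjusted p = 0.776).

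Of 14279 transcripts tested, 286 differed between the sexes at an adjusted p under 0.05, which is 2.0% of those tested. More of them were higher in females (233 transcripts, 1.63% of those tested) than in males (53 transcripts, 0.371%). The median log2 difference, female minus male, was 1.44 among the transcripts that rose in females and -1.42 among those that fell. Of the former, 88 exceeded 4-fold and 62 were under 2-fold, and of the latter 19 and 17. Among all 14279 tested, 2727 exceeded 4-fold and 9927 were under 2-fold. In 22 of the 233 no male library had a count, and in 7 of the 53 no female library had one. Over all tested these numbers were 2033 and 1223, each including 738 transcripts with no oenocyte count at all. At an unadjusted p under 0.05 there were 1540 transcripts (10.8%). The number of calls followed the model closely: with all 8 libraries kept as separate samples it was 835, with the 7415 genes of the aligned-read tables it was 25 (0.337%), and without a female fat body library it was 46 or 45. Leaving out a female oenocyte or male fat body library also lowered the number of calls, whereas leaving out a male oenocyte library did not. The male oenocyte libraries enter as 1 summed sample, so leaving 1 out keeps 7 samples and 3 residual degrees of freedom. Leaving out any other library takes a sample from the fit, so this contrast follows from the design.

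**Figure D1:**
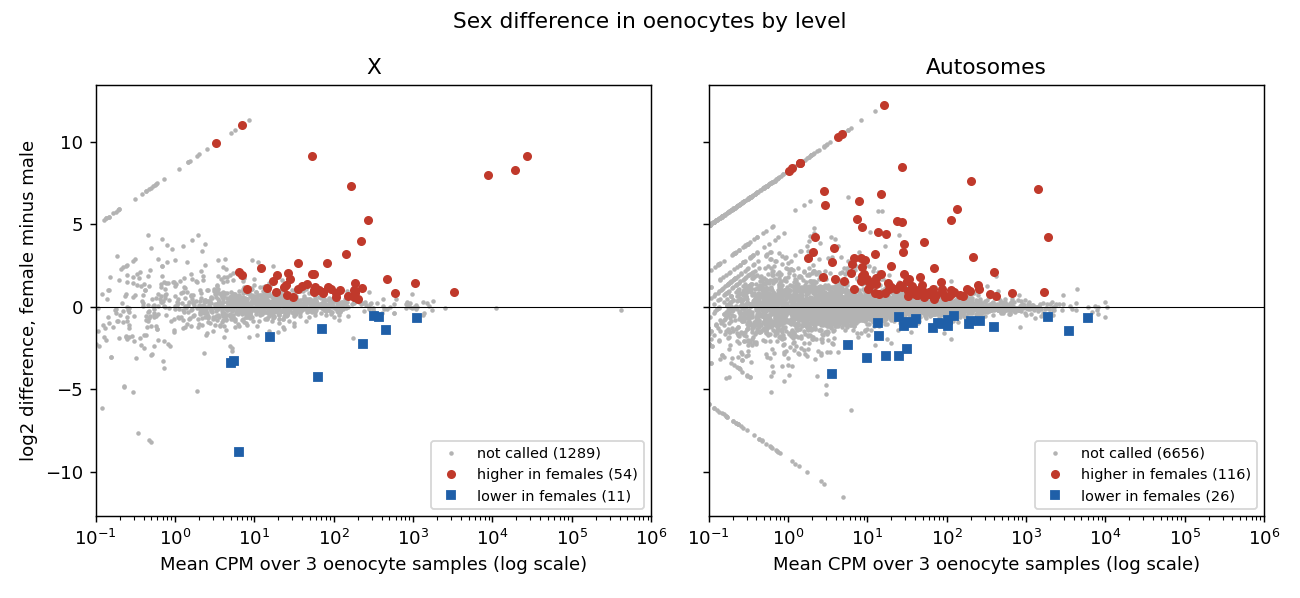
The log2 difference (female minus male, vertical axis) of each tested transcript against its mean CPM over the 3 oenocyte samples (log axis), with the X on the left and autosomes on the right; each point is a transcript, transcripts below 0.1 CPM lie outside the axis, and the outer diagonal rows are transcripts with no count in one sex, whose fitted difference depends on the prior count. On the X 54 transcripts were called higher and 11 lower in females, and on the autosomes 116 higher and 26 lower.

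The enzymes that place double bonds in hydrocarbon precursors differed in opposite directions. DesatF, the desaturase that adds the second double bond to make dienes, was at 2809 and 2785 CPM in female and 153 and 150 CPM in male oenocytes. Both female libraries lay far above both male libraries, a log2 difference of 4.21 ± 0.11 (SE), or 18.5-fold (adjusted p = 0.00144). Female fat body held 36.6 and 34.4 CPM and male fat body 3.27 and 3.72 CPM, so female oenocytes stood above every other group. The call held in every alternative except the aligned reads per gene, where the log2 difference was 1.87 (adjusted p = 0.490). There the male libraries were far apart, at 106 and 928 reads, beside 3583 and 1721 reads in females. Desat2, a desaturase that in D. melanogaster sets the position of the double bond in female dienes, went the other way: its main transcript (FBtr0218746) was at 2213 and 2184 CPM in females and 5998 and 5997 CPM in males. Here the male libraries were the high ones, with a log2 difference of -1.45 ± 0.09 (SE, adjusted p = 0.00721; without female oenocyte replicate 2, adjusted p = 0.0522). In the aligned reads per gene the Desat2 difference was -2.32 and did not pass (adjusted p = 0.267). The male libraries were less alike there, at 20677 and 9710 reads, beside 3364 and 4302 reads in females. Fat body showed the same order at a low level, with 34.1 and 38.4 CPM in females and 118 and 120 CPM in males. Another Desat2 transcript (FBtr0348134) was at 3.48 and 1.51 CPM in females and 3.44 and 3.80 CPM in males, overlapping between the sexes (adjusted p = 1).

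Desat1, which introduces the initial double bond, could be read only per gene, in the authors' TPM (a level scaled to transcript length and library). It was at 6648 and 6242 TPM in female and 5220 and 5214 TPM in male oenocytes. The female libraries were higher, but the difference of 0.30 ± 0.10 (SE) on the log2(TPM + 1) scale did not pass limma's test (adjusted p = 0.131, where 7.32% of 7722 genes were called, 5.08% higher and 2.24% lower). Fat body held Desat1 at 9292 and 8822 TPM in females and 12444 and 11117 TPM in males, above every oenocyte library, whereas DesatF and the main Desat2 transcript were far lower there than in oenocytes of the same sex. Of the 3 desaturase genes in the files, then, 1 rose in females, 1 fell and 1 did not pass; none of the 21 elongase symbols and none of the 21 other symbols for fatty acid and hydrocarbon synthesis were matched, and these genes are not analysed here.

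Other abundant oenocyte transcripts changed with sex as well. In all, 13 called transcripts reached a mean of 1000 CPM in oenocytes of at least 1 sex, 9 higher and 4 lower in females. One of them, on 3R and known only by a GD number, was, like DesatF, highest in female oenocytes. It was at 2040 and 2139 CPM in females and 15.2 and 14.9 CPM in males (log2 difference 7.12 ± 0.16 SE, adjusted p = 0.00125). Fat body showed the same order at a low level, with 30.7 and 30.2 CPM in females and 1.13 and 1.45 CPM in males. This transcript was chosen here after its values were seen. Beside Desat2, the 3 abundant transcripts that were lower in females had smaller differences, from -0.69 to -0.60 on the log2 scale, and at most 198 CPM in fat body. All 3 were also lower in female than in male fat body.

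Yp2 and Sxl gave the largest rises among named genes on the X. Yp2, a yolk protein secreted by the fat body and taken up by the growing egg, was at 40293 and 42321 CPM in female and 64.9 and 78.0 CPM in male oenocytes. The female libraries stood 561-fold above the male ones, a log2 difference of 9.13 ± 0.53 (SE, adjusted p = 0.00704), and this call held in every alternative in which Yp2 was tested. Female fat body held more, 116242 and 123365 CPM, and male fat body 45.6 and 80.4 CPM, so the level in female oenocytes was 34.5% of that in female fat body. A pair of other X-linked transcripts of very high level in females, for which the files give no names, showed the same arrangement. The first was at 27969 and 29854 CPM in female and 81.3 and 98.4 CPM in male oenocytes (adjusted p = 0.00824), and the second, chosen after its values were seen, at 12701 and 13630 CPM against 45.6 and 55.3 CPM (adjusted p = 0.00505). Female fat body held both at 85542 to 197003 CPM. The other fat body markers in the files, Fbp2 and Lsp1gamma, were at 0 TPM in all 4 oenocyte libraries but also at no more than 0.25 TPM in any fat body library, so they do not mark adult fat body here. Of the 3 matched markers Yp2 was the one detected in oenocytes, and the part of fat body RNA in these differences was not tested. In such bulk samples more cells of a type and more RNA per cell cannot be told apart.

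Sxl, the X-linked switch gene of female development, whose RNA is spliced differently in the sexes, was at 108 and 123 CPM in female and 17.7 and 19.1 CPM in male oenocytes. Every female library lay above every male library, with a log2 difference of 2.63 ± 0.16 (SE, adjusted p = 0.00739). Fat body split in the same way, at 72.0 and 70.4 CPM in females and 20.9 and 24.4 CPM in males. The call was lost without female fat body replicate 1 (adjusted p = 0.0517) or 2 (0.0535). These are counts for 1 deposited transcript of Sxl, so they do not separate the splice forms. The 2 transcripts of tra, the target of Sxl in the cascade, were higher in females by 0.55 and 0.91 on the log2 scale and did not pass the test (adjusted p = 0.837 and 0.827, at 0.98 to 5.84 CPM). The gene fru, which shapes male courtship circuits, was at 0.01 to 0.32 TPM, and dsx, the male-specific lethal genes and the roX RNAs were not matched by symbol. Of 3 transcripts tested in the sex determination list, 1 was called, where 2.0% of all transcripts were, with a list median of 0.91 beside 0.00 over all transcripts.

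Outside these groups 7 transcripts with a gene symbol rose in females, and all 7 were higher in female fat body than in female oenocytes. Obp99a, a member of the odorant-binding protein family, was at 183 and 154 CPM in female and 4.26 and 4.42 CPM in male oenocytes, and female fat body held 1450 and 1528 CPM and male fat body 52.3 and 53.4 CPM. The sexes were well apart in both tissues, and in oenocytes the log2 difference was 5.27 ± 0.16 (SE, adjusted p = 0.00208). Among the 13 odorant-binding genes tested of 47 in the files Obp99a was the one called, beside 2.0% of all transcripts; the list's median log2 difference was -0.13, and Obp99c, another abundant member, was at 259 and 250 CPM in females and 247 and 248 CPM in males. Limma on TPM also placed Obp99b lower in females (-0.75 on the log2 scale, adjusted p = 0.0119).

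The gene v, which encodes tryptophan 2,3-dioxygenase of the brown eye pigment pathway and lies on the X, was at 44.8 and 40.1 CPM in female and 19.99 and 20.85 CPM in male oenocytes, a difference of 1.05 ± 0.12 (log2, SE, adjusted p = 0.0316). AlstR, an X-linked receptor for allatostatin peptides, was at 32.7 and 30.5 CPM against 12.1 and 12.8 CPM (1.33 ± 0.09, adjusted p = 0.00886). Idgf1 and Idgf3, secreted growth factors related to chitinases, both lie on 2L and both rose. Idgf1 was at 56.3 and 56.6 CPM in females and 28.7 and 26.6 CPM in males (1.05 ± 0.10, adjusted p = 0.0185), and Idgf3 at 72.2 and 71.8 CPM against 40.7 and 40.9 CPM (0.82 ± 0.08, adjusted p = 0.0185). The levels of Obp99a, v, AlstR, Idgf1 and Idgf3 in female oenocytes were 11.3%, 11.7%, 14.6%, 11.4% and 22.3% of those in the fat body of females, and in male oenocytes 8.26%, 8.49%, 10.0%, 9.64% and 15.2% of those in male fat body. Fat body of both sexes thus held more of each, and its part in the oenocyte difference was not tested.

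AttC, an antibacterial peptide of the attacin family, was low in oenocytes, at 4.45 and 5.64 CPM in females and 0.573 and 0.859 CPM in males (2.72 ± 0.33, adjusted p = 0.0348), and higher in fat body of males (18.8 and 20.9 CPM) than of females (10.5 and 9.12 CPM). In the aligned reads per gene AttC had only 3 and 3 reads in female and 0 and 1 in male oenocytes, and it was not called there. Its mean was under the 5 CPM used for naming. In the list of antimicrobial peptides and recognition proteins it was the one called of 11 transcripts with any oenocyte count (2.11% of such transcripts overall), whose median was -0.08. A further 2, AttA and CecC, entered the test without an oenocyte count. Men, the malic enzyme that supplies NADPH, differed in 1 of its transcripts: FBtr0220454 was at 41.5 and 40.7 CPM in females and 19.2 and 11.04 CPM in males (1.58 ± 0.13, adjusted p = 0.0152) and at 428 and 488 CPM in female fat body, but the main Men transcript was at 2045 and 2086 CPM against 2357 and 2352 CPM (-0.19, adjusted p = 0.455). The gene's summed TPM differed by -0.15 on the log2 scale (limma, adjusted p = 0.391). The calls of v, Idgf1, Idgf3 and AttC were lost without any 1 of the 2 female oenocyte or 4 fat body libraries (adjusted p 0.0561 to 0.114), that of Men without any 1 female library of either tissue (0.0559 to 0.0712) or with the 4 oenocyte libraries alone (0.082), and that of AlstR without female fat body replicate 1 or 2 (0.0559 and 0.0575).

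**Figure D2:**
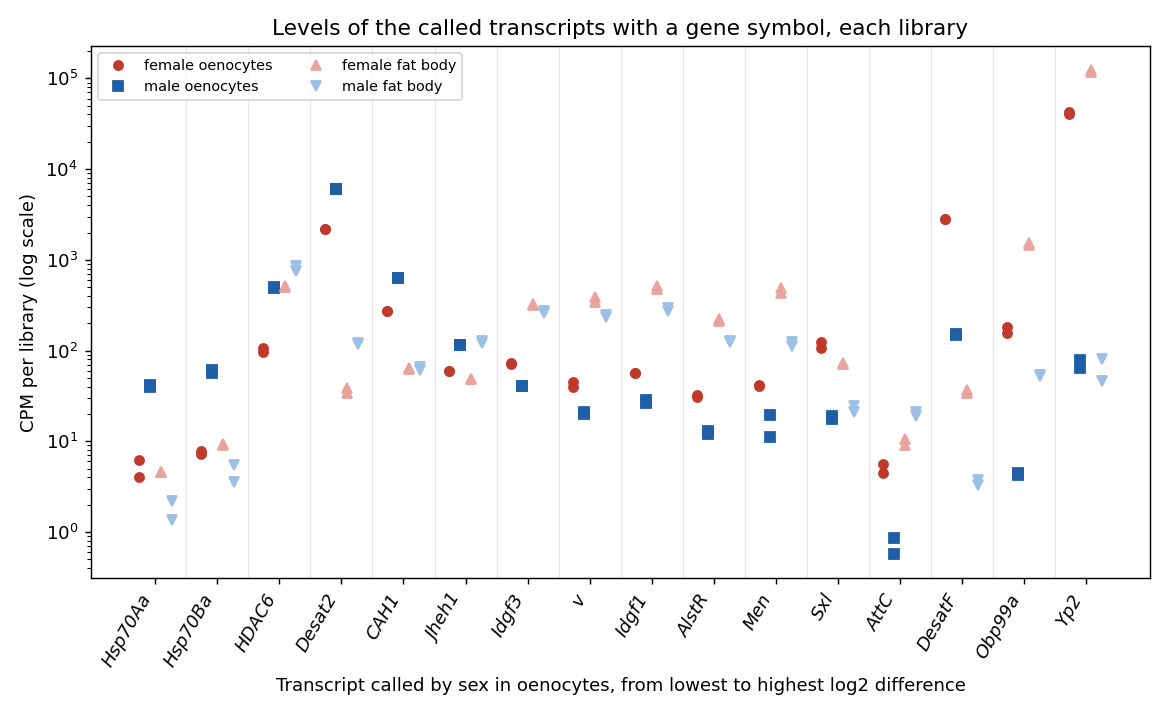
CPM (log axis) of the 16 called transcripts whose gene has a symbol, ordered from the lowest to the highest log2 difference; each point is 1 library, in female and male oenocytes and female and male fat body. DesatF, Desat2 and CAH1 were higher in oenocytes than in fat body of the same sex, whereas Yp2, Obp99a, AttC and the genes from Idgf3 to Men were higher in female fat body than in female oenocytes.

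Transcripts that were lower in females included HDAC6, an X-linked deacetylase that in mammals acts on tubulin. It was at 108 and 95.9 CPM in female and 496 and 493 CPM in male oenocytes, so the male libraries were 4.85-fold higher (log2 difference -2.28 ± 0.11 SE, adjusted p = 0.00505). Female fat body held 518 and 505 CPM and male fat body 863 and 755 CPM, with female oenocytes the lowest of the 4 groups. CAH1, a carbonic anhydrase on 2L, was at 271 and 276 CPM in females and 631 and 630 CPM in males (-1.21 ± 0.08, adjusted p = 0.00785), whereas fat body held 60.4 to 65.7 CPM in both sexes. Jheh1, an epoxide hydrolase that breaks down juvenile hormone, was at 59.3 and 59.0 CPM in females and 116 and 116 CPM in males (-0.97 ± 0.08, adjusted p = 0.0133). Fat body held Jheh1 in the same order and at a similar level, 48.3 and 48.1 CPM in females and 120 and 128 CPM in males. Leaving out female oenocyte replicate 2 or either female fat body library took CAH1 to an adjusted p of 0.0517 to 0.0589, and leaving out any 1 female library took Jheh1 to 0.0593 to 0.0742.

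Both other named transcripts that fell in females encode Hsp70, the stress-induced chaperone. Hsp70Ba was at 7.80 and 7.32 CPM in females and 56.3 and 61.0 CPM in males (-2.97 ± 0.29, adjusted p = 0.0209), and Hsp70Aa at 4.06 and 6.14 CPM against 39.5 and 41.3 CPM (-2.99 ± 0.41, adjusted p = 0.0466). In both genes the male oenocytes stood above all other groups, since fat body held at most 9.44 CPM. Hsp70Ab and Hsp70Bb had differences of -2.89 and -2.50 that did not pass (adjusted p = 0.325 and 0.257). Limma on TPM (adjusted p = 0.00484 and 0.0101), DESeq2 (0.0253 and 0.0189) and the fit of genes with 1 transcript (0.0182 and 0.00376) called both, as the fit of the 4 oenocyte libraries alone did Hsp70Ab (0.0487). These 4 genes are near-identical copies between which reads can be split wrongly, and they were set side by side after their values were seen. Among other heat shock genes, Hsp83 was at 3039 and 3011 CPM in females and 2725 and 2717 CPM in males (0.15, adjusted p = 0.551), Hsp68 at 7.67 and 5.94 CPM against 12.5 and 11.7 CPM (-0.81, adjusted p = 0.399) and Hsc70-4 at 4380 and 4519 CPM against 3761 and 3726 CPM (0.25, adjusted p = 0.363). Without any 1 female library of either tissue Hsp70Ba was at an adjusted p of 0.0872 to 0.112, and Hsp70Aa was at 0.0785 to 0.144 without any 1 female oenocyte or any 1 fat body library.

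Of the 427 genes with a symbol, 234 were tested through 260 transcripts, of which 10 were called higher (3.85%) and 6 lower (2.31%), beside 1.63% and 0.371% of all transcripts; the remaining 193 were not tested by transcript. Of those, 49 could be tested by limma on the deposited gene TPM and 5 were called, beside 7.32% of all 7722 genes tested. Syx4, an X-linked membrane fusion protein, was at 15.1 and 13.9 TPM in females and 6.51 and 6.68 TPM in males (1.03 on the log2(TPM + 1) scale, adjusted p = 0.0105). Sox102F, a transcription factor on chromosome 4, was at 10.3 and 11.3 TPM against 5.25 and 5.34 TPM (0.91, adjusted p = 0.00553), and Tep2, a thioester protein of the immune response, at 31.9 and 34.8 TPM against 20.3 and 20.6 TPM (0.68, adjusted p = 0.0121). Fat body held Sox102F at 63.9 to 89.3 TPM and Tep2 at 127 to 277 TPM, above the oenocytes, whereas Syx4 was at 8.60 to 13.9 TPM there. Def, the antibacterial defensin, was low, at 2.80 and 1.63 TPM in females and 0 and 0.26 TPM in males (1.48, adjusted p = 0.0397). Hmgs, the HMG-CoA synthase of the mevalonate pathway, was the one that fell in females, at 116 and 111 TPM against 176 and 172 TPM (-0.61, adjusted p = 0.0208), and both sexes had less of it in fat body (38.2 to 74.0 TPM).

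Among the remaining lists, none of the 4 cytochrome P450 transcripts with an oenocyte count was called by edgeR, and their median was -0.63; another transcript, of Cyp4d1, entered the test without an oenocyte count. Cyp4d2 was at 17.1 and 16.5 CPM in females and 26.8 and 28.2 CPM in males, and Cyp4g15 at 10.1 and 12.2 CPM against 18.7 and 18.6 CPM. Both were lower in every female library, by 0.72 and 0.74 on the log2 scale, with unadjusted p of 0.00443 and 0.0285 (adjusted p = 0.120 and 0.345), and limma on TPM called Cyp4d2 (adjusted p = 0.0251). The clock gene tim was at 2.43 and 2.01 TPM in females and 1.33 and 1.33 TPM in males (limma, adjusted p = 0.318).

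Of the transcripts without a symbol, the largest fitted rises were in transcripts with no male count. GD14358 on 3L was at 24.4 and 24.9 CPM in female and 0 CPM in both male oenocyte libraries, at least 8.24 higher on the log2 scale when the males are set to 3 counts over the group (adjusted p = 0.0258). FBtr0362882, which matched no gene, was at 24.6 and 26.7 CPM against 0 CPM, at least 8.29 higher (adjusted p = 0.0281). In fat body FBtr0362882 was present in both sexes, at 40.8 and 15.3 CPM in females and 26.8 and 35.0 CPM in males. GD14358 was low there, at 2.04 and 2.06 CPM in females and 0.267 and 0.857 CPM in males. Both were lost without female oenocyte replicate 1 or 2 (adjusted p 0.0849 to 0.103), and also without either female fat body library for GD14358 (0.0961 and 0.0983) or either male fat body library for FBtr0362882 (0.0897 and 0.0903). Among called transcripts with a mean of at least 5 CPM the largest fitted falls were both on the X; at lower levels, transcripts with no female count fitted below them. GD24428 was at 8.82 and 9.30 CPM in females and 163 and 175 CPM in males (-4.24 ± 0.16, adjusted p = 0.00495). Fat body held GD24428 at 68.2 and 74.6 CPM in females and 58.0 and 72.6 CPM in males, above female oenocytes. A transcript of GD16316 was at 0.04 and 0.03 CPM in females and 1.15 and 28.2 CPM in the male libraries, so the male libraries were far apart; the log2 difference was -8.79 (adjusted p = 0.0433), and -4.69 without male replicate 2 (adjusted p = 0.177). It was also lost without any 1 female oenocyte or any 1 fat body library (adjusted p 0.0651 to 0.218) and with all 8 libraries apart (0.0803). The gene's TPM was alike in the sexes (0.19 on the log2 scale, limma adjusted p = 0.631).

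Markers of other cell types were mostly low, and their part in the sex differences was not tested. The 3 muscle genes in the files summed to 8.96 and 10.2 TPM in female and 6.03 and 6.92 TPM in male oenocytes, and the 5 female germline and follicle genes to at most 0.50 TPM, with Cp16 and dec-1 at 0. The 3 gut genes summed to 0.34 to 1.77 TPM, and crq, the hemocyte marker that was matched, was at 30.8 and 31.7 TPM in females and 36.3 and 35.4 TPM in males. The 20 genes of the male germline and accessory gland list summed to 79.3 and 79.2 TPM in females and 54.0 and 56.3 TPM in males. Of them 13 were at 0 in all 4 libraries. The list includes Acph-1, at 8.70 and 5.84 TPM in females and 11.45 and 11.63 TPM in males. Acph-1 entered the list only because its symbol begins with Acp, and whether it marks these tissues was not tested. Most of the list's sum came from Acp54A1, at 67.4 and 70.4 TPM in females and 41.2 and 42.3 TPM in males (limma, adjusted p = 0.00337). By transcript Acp54A1 was at 46.7 and 49.2 CPM in females and 29.5 and 30.2 CPM in males (0.68, edgeR, adjusted p = 0.142). Fat body held 452 to 724 TPM of the list. The oenocyte markers that were matched, Desat1 and DesatF, summed to 9373 and 8786 TPM in females and 5365 and 5357 TPM in males; DesatF was higher in oenocytes than in fat body of the same sex, and Desat1 was lower.

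The called transcripts were also set beside their levels in fat body. Of the 233 transcripts higher in females, 181 (77.7%) had both female fat body libraries above both female oenocyte libraries in CPM. Of all 14279 transcripts tested, 4306 (30.2%) did. These sets differ in level, with a median oenocyte level of 30.2 CPM among the 233 and 4.69 CPM among all tested. For male fat body over male oenocytes the numbers were 202 (86.7%) and 4660 (32.6%). Low male oenocyte values favour a call higher in females, so this share is partly fixed by the selection. Among the 53 lower in females, 33 (62.3%) had both fat body libraries above both oenocyte libraries in females, which the selection favours likewise. In males 26 (49.1%) did. Of the 233, 17 were in female fat body at under 10% of their level in female oenocytes (7.30%), beside 1364 of all tested (9.55%). The part of fat body RNA in the calls was not tested.

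On the X, 65 of 1354 transcripts were called (4.80%), 54 higher (3.99%) and 11 lower (0.812%) in females. On the autosomes 142 of 6798 were called (2.09%), 116 higher (1.71%) and 26 lower (0.382%). Transcripts that matched no gene or an unplaced one gave 79 calls of 6127 (1.29%), 63 higher (1.03%) and 16 lower (0.261%). By arm, 2L had 35 higher and 6 lower of 1491 (2.75% called), 2R had 25 and 8 of 1699 (1.94%), 3L had 14 and 1 of 1526 (0.983%), and 3R had 41 and 11 of 2041 (2.55%). On chromosome 4, 1 transcript of 41 was called (2.44%), higher in females. On the X, 915 transcripts did not have both female fat body libraries above both female oenocyte libraries. Of these, 13 (1.42%) were called higher and 4 (0.437%) lower in females. Of 4548 such autosomal transcripts, 22 (0.484%) were called higher and 14 (0.308%) lower. This split uses female oenocyte values that also enter the calls, and the part of fat body RNA was not tested. No test was made of X against autosomes.

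The difference between X and autosomes was not confined to the called transcripts. The median log2 difference was 0.14 on the X (middle 50% from -0.21 to 0.53) and -0.02 on the autosomes (-0.30 to 0.28), beside 0.00 over all transcripts, and 59.2% of X against 45.4% of autosomal transcripts were above 0. At a mean of at least 5 CPM the medians were 0.15 over 884 X transcripts and -0.05 over 3984 autosomal ones. With all tested transcripts split by mean level into 3 equal groups, the X medians were 0.00, 0.16 and 0.14 and the autosomal medians 0.00, -0.08 and -0.04, from the lowest to the highest group. Of the 65 calls on the X, 57 fell in the highest group and 8 in the middle one. The 41 transcripts of chromosome 4 had a median of 0.16.

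Within each library, the median level of 1115 X-linked genes was set against that of 5597 autosomal genes, in the authors' TPM. The X stood 0.07 and 0.01 above the autosomes on the log2 scale in the female libraries and 0.11 and 0.06 below them in the male libraries. The sexes did not overlap, and the smallest distance between them exceeded that between the replicates of either sex. With 2 libraries a sex, and the male ones counted as 1 sample, no test was made. The X median of the sex difference was above the autosomal median by 0.16, and by 0.12 to 0.29 over the 21 alternatives.

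**Figure D3:**
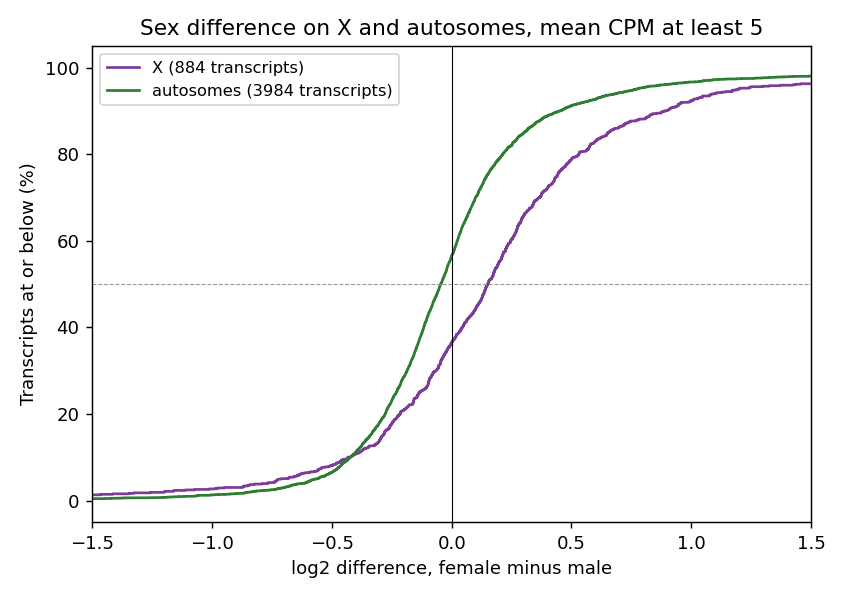
Share of transcripts (vertical axis, %) at or below each log2 difference, female minus male (horizontal axis), for 884 X-linked and 3984 autosomal transcripts with a mean of at least 5 CPM; each line is a cumulative curve and the dashed line marks the median. The X curve lies to the right of the autosomal curve over most of the range, with medians of 0.15 and -0.05.

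The calls could be set beside other measures of the same libraries. Of 135 called transcripts that were higher in females and the only transcript of their gene, 134 were in the gene TPM table, where 134 had the same direction and 131 were called by limma; for 30 lower ones these numbers were 30 and 29. Of the called transcripts from genes with 2 transcripts, 37 of 39 higher and 5 of 7 lower ones had the same direction in gene TPM, and 31 and 4 were called. In the aligned reads 131 of 134 and 30 of 30 of the genes with 1 transcript had the same direction, but 15 and 4 were called; with 2 transcripts these were 35 of 39 and 5 of 7, with 4 and 0 called. Of the 16 called transcripts with a symbol, the genes of 5 (Yp2, Sxl, Obp99a, Hsp70Aa and Hsp70Ba) were called in the aligned reads, and 2 (Yp2 and DesatF) in a fit of the oenocyte samples alone with the males summed. These tables came from the same RNA and are no independent replicate. For genes with 1 transcript the matching rule made the gene TPM equal to the TPM of that transcript. Their shared direction was thus largely fixed by the rule and tests nothing. Limma results for named genes with 1 transcript likewise give another test of the same estimates. Over autosomal genes with at least 20 allele-specific reads in female oenocytes, the median share of the alternative allele was 63.6% in 99 genes higher in females, 68.1% in 22 lower ones and 63.7% in 3326 tested genes. The median transcript length was 1984 bases over all 233 called transcripts higher in females and 1647 bases over the 53 lower ones, beside 2216 over the 14279 tested.

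**Figure D4:**
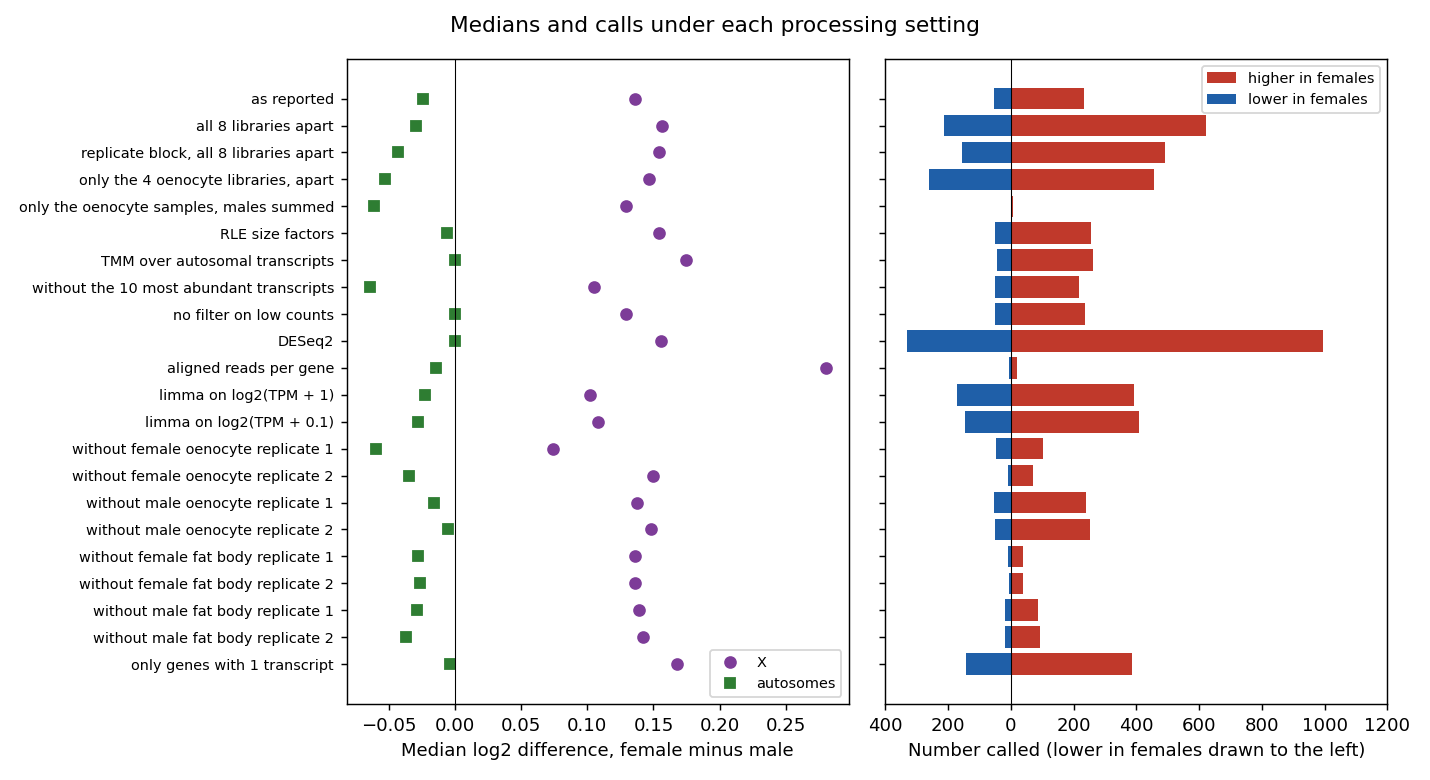
Left, the median log2 difference (female minus male) of X-linked and autosomal transcripts as reported and under each alternative; right, the number of transcripts or genes called higher (drawn to the right) and lower (to the left) in females. The X median lay above the autosomal median in each setting, while the number of calls ranged from 8 to 1329.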

How the data were processed

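Oenocyte and fat body libraries of both sexes were analysed, 2 a group. Reads were processed with kallisto 0.44.0 and STAR 2.5.1b, per the submitters' processing notes; their settings and the genome build are not given in the sources used here. The authors deposited estimated counts per transcript, with a copy for each species, TPM per gene, and whole-number read counts per gene and allele, per the file headers; the log2 allele ratios that the authors deposited beside them were not used. Both species copies were summed here and rounded. Of 24115 transcripts 9640 were assigned to a gene, where the gene's 8 deposited TPM equalled those of 1 transcript or the sum of a single pair (pairs for genes with at least 10 TPM over the libraries); they held 85.8% of the counts. The rest have no gene, name or chromosome here.

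Tests used edgeR 4.0.16 (R 4.3.3; TMM, filterByExpr, quasi-likelihood) with 4 groups in 1 fit of 7 samples (3 residual degrees of freedom) and Benjamini-Hochberg adjustment over all transcripts. The SE is the absolute log2 fold change over the square root of F. Gene TPM were tested with limma 3.58.1 on log2(TPM + 1) for genes with at least 1 TPM in 2 libraries. DESeq2 1.42.0 and other scalings, filters and sample sets were alternatives, and the fit was tested on simulated data. Estimated counts ranged from 10732070 to 34474092 and aligned reads from 2275755 to 4642417 per library; floors cover counting error only.

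Named are up to 12 called transcripts a direction with a symbol, no overlap between the sexes and a mean of at least 5 CPM (up to 5 on the X), desaturase, yolk and sex determination genes, HDAC6, the most abundant transcripts, and at most 2 without a symbol a direction. AttC, a called list member, is named below that mean. Members and lists were chosen with earlier results of these data known. The ribosomal, nervous system, elongase and hydrocarbon synthesis lists matched no gene. No name table for GD numbers was used here.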

Additional observations from a re-analysis of the deposited data

How the results depend on the processing

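The 286 calls (65 on the X, 142 on autosomes, 6 in the lists) became 835 (170, 422) with all 8 libraries apart, 717 (141, 332) with the 4 oenocyte libraries alone, 8 (4, 4, and 2 in the lists) with the oenocyte samples alone and males summed (3 samples), 1329 (250, 572, 10) with DESeq2, 25 (9, 16, 3) with aligned reads per gene, 565 (148, 410, 10) and 557 (142, 409) with limma on log2(TPM + 1) and log2(TPM + 0.1), and 529 (169, 353) with only genes with 1 transcript, a choice made after seeing the data. The share of calls higher in females was 81.5% as reported, 63.7% with the 4 oenocyte libraries alone and 69.4% with limma on log2(TPM + 1). RLE factors, TMM over autosomes, leaving out the 10 most abundant transcripts and no filter gave 267 to 308 calls. Leaving out 1 library gave 45 to 303 calls, 18 to 65 on the X, 20 to 150 on autosomes and 4 to 6 in the lists, with a lone sample assumed to vary like the other groups. In the alternatives fitted to estimated counts per transcript, the reported calls that were tested again kept their direction, except for 2 of 286 without male oenocyte replicate 2; in the aligned reads per gene some did not, as given above for genes with 1 and 2 transcripts.

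Replicate numbers did not pair the samples: deviations of same-numbered libraries correlated at -0.01 to 0.09. With a replicate block and all 8 libraries apart there were 647 calls, 136 on the X and 340 on autosomes, beside 835 without the block, and the X median was 0.197 above the autosomal one.

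The gap between the X and autosomal medians, 0.160 as reported, was 0.200 with the 4 oenocyte libraries alone, 0.191 with the oenocyte samples alone and males summed, 0.129 without the filter, 0.295 with aligned reads and 0.125 with limma on log2(TPM + 1). It was 0.133 to 0.184 without 1 library. The cause of these shifts was not tested. Low levels limit precision: among the lowest of 3 groups by level, 2 of 1605 autosomal transcripts were called.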
